A study of Homo sapiens with 26 samples.

Results

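The 10 genes described here are NF-kB feedback regulators, NF-kB subunits, and adhesion, prostaglandin and cytokine genes: NFKBIA, TNFAIP3, BIRC3, NFKB2, RELB, IRF1, ICAM1, PTGS2, LIF and IL6. They were taken by symbol from a table of 19704 genes on 19806 rows, and each was on 1 row. The libraries came from U2OS, an established human osteosarcoma cell line that carried an Arntl::dLUC reporter of the circadian clock. The cells were changed to medium of pH 7.4 (neutral) or pH 6.3 (acidic), and were lysed for RNA at 4 h intervals up to 52 h, which gave 13 libraries per medium and 26 in all. Both media held 5% serum, 0.25x penicillin/streptomycin and 0.1 µM of the glucocorticoid dexamethasone, were buffered by HEPES and PIPES (25 mM each) without bicarbonate, and were sealed under air. The 28 to 52 h libraries came from a first set of plates and the 4 to 24 h libraries from a second set, so time in the medium and set of plates cannot be told apart. Each time had 1 library per medium, and p-values therefore measure the spread over time points.

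NF-kB is a family of dimeric transcription factors that IkB proteins hold in the cytoplasm. Receptors of the tumour necrosis factor and interleukin families activate kinases that mark IkB for degradation, the dimers enter the nucleus, and among the genes they switch on are those of their own inhibitors, which closes a negative feedback loop. A slower noncanonical arm processes the NFKB2 precursor to a subunit that pairs with RELB. Dexamethasone activates the glucocorticoid receptor, which is known to restrain NF-kB-driven transcription in many cell types and to induce NFKBIA in some.

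NF-kB dimers bind decamers of the kappaB consensus, so the promoters were searched for it first. RefSeq (GRCh38.p14) gave promoter windows for 8 of the 10 genes, all but RELB and LIF. In the 250 bases before the start, the kappaB consensus decamer, on either strand, was in the windows of 6 of these 8 genes (NFKBIA, TNFAIP3, BIRC3, NFKB2, IRF1 and IL6), and in 9.96% of all 35116 windows of the same length. The windows of ICAM1 and PTGS2 held no match. The stretches below hold matches, with 2 of the 4 NFKB2 stretches shown as examples, 5′ to 3′ on the strand of the gene, with the matching bases in capitals. Where a stretch lies in an annotated exon of another transcript, it was kept to 30 bases. A match is a description of letters and not a measured binding site.
NFKBIA (chr14:35404750-35404999, minus strand): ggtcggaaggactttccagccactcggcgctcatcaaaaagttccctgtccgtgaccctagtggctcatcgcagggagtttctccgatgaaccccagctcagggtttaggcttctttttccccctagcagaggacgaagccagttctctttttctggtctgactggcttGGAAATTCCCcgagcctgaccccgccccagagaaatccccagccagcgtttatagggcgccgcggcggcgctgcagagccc
TNFAIP3 (chr6:137867188-137867217, plus strand): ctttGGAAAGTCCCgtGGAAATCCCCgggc
BIRC3 (chr11:102317260-102317383, plus strand): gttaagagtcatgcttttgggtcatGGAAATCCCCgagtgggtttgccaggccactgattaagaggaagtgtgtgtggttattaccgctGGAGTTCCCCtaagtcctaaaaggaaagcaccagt
NFKB2 (chr10:102394467-102394496, plus strand): tcatGGGAATTCCCCcctccggggggccga
NFKB2 (chr10:102395525-102395554, plus strand): caccGGGGCTTCCCggattctcctagacct
IRF1 (chr5:132490798-132490827, minus strand): ggctGGGGAATCCCgctaagtgtttggatt
IL6 (chr7:22727123-22727152, plus strand): atgtGGGATTTTCCcatgagtctcaatatt

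The TNFAIP3 and BIRC3 stretches each held 2 matches, and the first NFKB2 stretch held 2 that overlap. TATAAA, on either strand, was in the windows of NFKBIA, ICAM1 and PTGS2 and in 10.7% of all windows. The NFKBIA match was on the strand opposite to the gene, so it reads TTTATA above. The AP-1 site TGANTCA (6.57% of all windows) and the cyclic AMP element TGACGTCA (1.65%) had no match in any of the 8 genes, each searched on both strands.

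Levels are given in FPKM, fragments per kilobase of transcript per mega (M) of mapped fragments, which allow a comparison between genes. Total counts are not in the table. With the common spacing of low values read as 1 fragment, 24 libraries were estimated at 19.5 to 35.8 M fragments, and the shallowest were the neutral 12 h library (9.52 M) and the acidic 8 h one (11.1 M). If that spacing were several fragments in a library, its depth and the fragment counts given for it would be higher by that factor. The deviations of 4 libraries from each gene's mean over both media followed the GC content of transcripts. They were pH 7.4 at 28 h (r across genes 0.65), 44 h (-0.55) and 48 h (-0.64), and pH 6.3 at 20 h (0.58). Results are therefore also given without the pairs of these 6 times, or with a GC correction chosen after the data had been seen, where that changed a call. Of 9 markers of the osteoblast lineage and mesenchyme, 5 passed the filter of a mean of 1 FPKM, with VIM at means of 601.8 (pH 7.4) and 649.2 (pH 6.3), SPARC at 1021 and 978.1 and RUNX2 at 24.0 and 24.9, none of them called. The other 2 fell at pH 6.3, COL1A1 from 136 to 82.3 FPKM (log2 -0.78, adjusted p 0.0102) and ALPL from 3.42 to 1.07 (log2 -1.03, adjusted p 3.2e-05), and their part in the results was not tested. The mature osteoblast markers SP7 and IBSP were at or near 0, with highest values of 0 and 0.0371 FPKM. The list of 8 leukocyte markers, of which PTPRC and CD3E did not exceed 0.980 and 0.0804 FPKM, summed to 14.1 to 40.9 FPKM at pH 7.4 and 8.41 to 18.8 at pH 6.3. That sum was mostly LCP1, which fell at pH 6.3 by 1.27 on the log2 scale, while CD68 rose (0.816 to 3.12 FPKM, log2 1.02, adjusted p 0.0058). CD68 passed the filter only through its acidic libraries, so some difference was built into its being tested.

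Acid medium was accompanied by higher transcript levels of the feedback regulators and noncanonical subunits and of IL6, and by a lower level of LIF. Over the 13 times, NFKBIA, BIRC3, IL6, RELB, TNFAIP3 and NFKB2 rose at pH 6.3, LIF fell, and ICAM1, IRF1 and PTGS2 did not pass the test (limma on log2(FPKM + 1) with time as a block, Benjamini-Hochberg adjusted p under 0.05 over the 11838 genes tested). Of all genes tested, 22.4% were called higher and 37.3% lower (59.7% in all), against 6 and 1 of these 10. The median difference of the 10 genes was 0.49 on the log2 scale, and that of all genes tested was -0.12. With quantile normalization, which moved the median of all genes by 0.11, the share of calls that were higher went from 37.5% to 48.1%. All 7 calls among the 10 genes held under that scaling, while the differences of IRF1 and PTGS2, not called in either fit, went from below 0 to 0.00 and 0.11. ICAM1, also not called in either fit, went from 0.11 to 0.33 (adjusted p 0.0526). A bulk library does not tell more RNA per cell from more cells with the RNA.

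**Figure D1:**
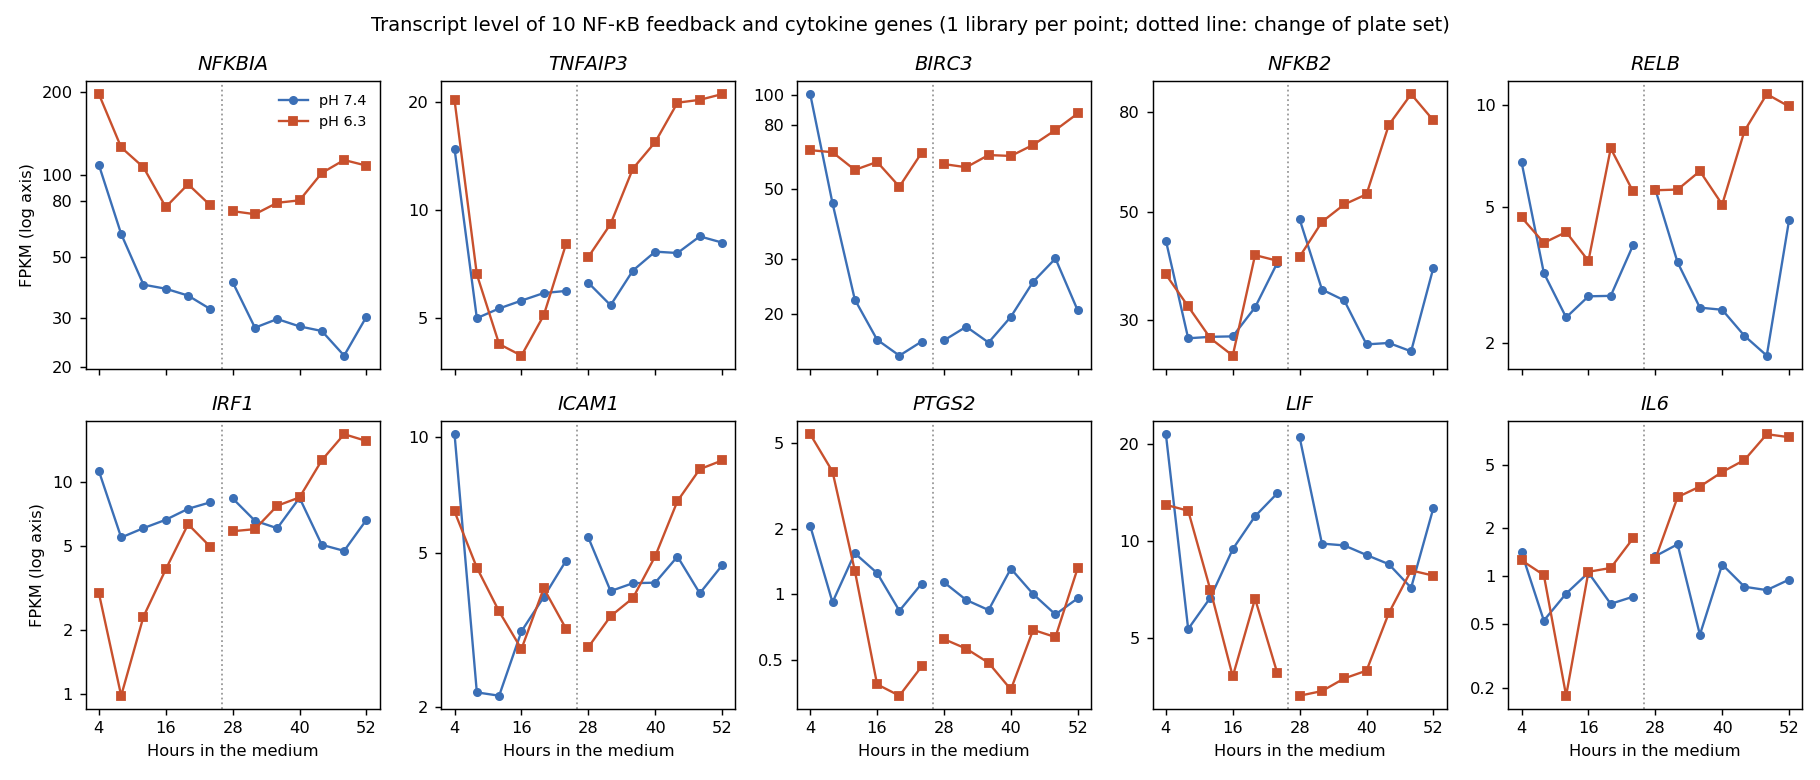
FPKM on a log axis against hours in the medium for each of the 10 genes, 1 library per point, blue circles for pH 7.4 and red squares for pH 6.3; the dotted line marks the change of plate set. NFKBIA is higher at pH 6.3 at all 13 times and BIRC3 at 12, while IL6 and IRF1 at pH 6.3 have their highest levels from 44 to 52 h.

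NFKBIA (chr14:35401511-35404749, minus strand, GRCh38) encodes IkB alpha, the main cytoplasmic inhibitor of NF-kB and the first feedback target of the canonical arm. At pH 7.4 it ranged from 21.9 FPKM at 48 h through a median of 32.4 to 108.4 at 4 h. At pH 6.3 it ranged from 71.8 at 32 h through a median of 92.3 to 196.3 at 4 h. The acidic library was the higher at all 13 times, although the groups overlapped through the neutral 4 h library. From 28 to 52 h they did not overlap: the highest neutral library had 40.6 FPKM and the lowest acidic one 71.8. The mean (± SD, n = 13) was 40.1 ± 22.7 FPKM in neutral and 100.1 ± 33.7 in acidic medium, a log2 difference of 1.37 (SE 0.113, adjusted p 1.9e-07).

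In neutral medium NFKBIA was highest at 4 h and 8 h, 108.4 and 60.8 FPKM, and was at 40.6 or less from 12 h on. In acidic medium it had 196.3 FPKM at 4 h, 71.8 to 80.6 from 28 to 40 h, and 101.4 to 113 from 44 to 52 h. The ratio between media was 1.81 at 4 h, at most 5.15, at 48 h, and 3.55 at 52 h. The neutral 48 h library was among those whose deviations followed GC content (r -0.64).

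TNFAIP3 (chr6:137867188-137883312, plus strand) encodes a ubiquitin-editing enzyme that shuts off signalling from the tumour necrosis factor receptor to the IkB kinase. Its neutral libraries ranged from 5.00 to 14.8 FPKM with a median of 6.28, and its acidic ones from 3.93 to 21.1 with a median of 9.16. Both media had a high 4 h library (14.8 and 20.3), and the acidic level then passed through 3.93 to 5.09 FPKM at 12 to 20 h, below the neutral level of the same times, before it reached 19.9 to 21.1 at 44 to 52 h. Acid was the higher at 3 of the 6 early times and at all 7 late ones. The difference over all times was 0.51 (log2, SE 0.153, adjusted p 0.00866). It was 0.05 (adjusted p 0.839) at 4 to 24 h and 0.91 (SE 0.150, adjusted p 1.0e-04) at 28 to 52 h, and the difference between sets of 0.86 passed its own test (SE 0.221, adjusted p 0.0158). Without the time point as a block the overall difference of TNFAIP3 had an adjusted p of 0.0570 and the set difference one of 0.120.

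BIRC3 (chr11:102317450-102339403, plus strand) encodes an inhibitor of apoptosis protein, a ubiquitin ligase of the tumour necrosis factor receptor complex that also limits the noncanonical kinase. The neutral course was steep, 100.6 FPKM at 4 h, 45.2 at 8 h, 22.3 at 12 h and 14.8 to 16.6 at 16 to 24 h, and then 16.3 to 30.1. The acidic libraries stayed between 51.0 and 87.3 FPKM throughout, the narrowest relative spread of the 10 genes in either medium, with a mean of 65.3 ± 9.11 against 27.9 ± 23.4 (SD, n = 13). Acid was thus the lower at 4 h alone (ratio 0.663) and the higher at the 12 later times, up to 4.24 times at 52 h. The log2 difference was 1.43 (SE 0.179, adjusted p 7.5e-06), and from 28 to 52 h the groups did not overlap.

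NFKB2 (chr10:102394110-102402529, plus strand) and RELB (chr19:45001430-45038198, plus strand) encode the subunits of the noncanonical dimer, and both genes are themselves NF-kB targets. NFKB2 ranged from 25.9 to 48.2 FPKM at pH 7.4 (median 31.8) and from 25.4 to 87.0 at pH 6.3 (median 40.7). RELB ranged from 1.83 to 6.78 FPKM at pH 7.4 and from 3.48 to 10.7 at pH 6.3, with medians of 2.75 and 5.60. Both sets of libraries overlapped over the whole course, and both genes had their highest acidic level at 48 h, when the neutral level was at its lowest. The neutral 48 h library was among those whose deviations followed GC content (r -0.64), and the part of this in its low levels was not tested. NFKB2 was 0.48 higher at pH 6.3 on the log2 scale (SE 0.161, adjusted p 0.0178) and RELB 0.72 higher (SE 0.173, adjusted p 0.00208).

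The pair moved together in both media: the correlation of RELB with NFKB2 was 0.91 over the 13 neutral libraries and 0.91 over the 13 acidic ones, a description that carries shared depth and GC content. This was not particular to the pair, as NFKB2 had 0.91 with LIF in neutral and 0.95 with IL6 in acidic medium. At 4 to 24 h neither gene passed the test, with differences of 0.03 for NFKB2 and 0.38 for RELB (adjusted p 0.899 and 0.209; RELB 0.60 and 0.0330 with quantile normalization). At 28 to 52 h both rose, by 0.85 and 1.01 (adjusted p 6.2e-04 and 9.4e-04). The difference between sets was 0.82 for NFKB2 (SE 0.255, adjusted p 0.0382) and 0.63 for RELB (adjusted p 0.186). The NFKB2 set difference was near the threshold: without the pair of any 1 of 9 times it was 0.68 to 0.85 with an adjusted p of 0.0535 to 0.0774, with quantile normalization its adjusted p was 0.0508, and with no filter on low values 0.0640. Without the 6 pairs of doubtful libraries its overall acid difference was 0.39 (adjusted p 0.0714). NFKB2 and RELB have the most GC-rich transcripts of the 10 genes (62.4% and 64.5%). With the GC correction the set differences were 0.87 (adjusted p 8.1e-04) and 0.69 (adjusted p 0.0194).

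IRF1 (chr5:132481609-132490798, minus strand) encodes a transcription factor of interferon responses and is itself an NF-kB target. Its neutral libraries lay between 4.73 and 11.3 FPKM with a median of 6.63, and its acidic ones between 0.982 and 16.8 with a median of 5.99. The acidic library was the lower at all 6 early times and the higher at 5 of the 7 late ones. It had 0.266 of the neutral level at 4 h (2.99 against 11.3 FPKM), 0.180 at 8 h and about the same level at 40 h (8.46 against 8.42). It had 3.55 times the neutral level at 48 h, where the neutral library was GC-shifted (r -0.64), and 2.35 times at 52 h. The mean over all times hid this course, with a difference of -0.17 (adjusted p 0.584). IRF1 fell by 0.98 at 4 to 24 h (SE 0.261, adjusted p 0.00835), was 0.53 higher at 28 to 52 h without passing the test (SE 0.242, adjusted p 0.0729), and the sets differed by 1.50 (SE 0.356, adjusted p 0.0110). The late difference did pass without the 28 h pair (0.69, adjusted p 0.0235), with quantile normalization (0.67, adjusted p 0.0147) and with the GC correction (0.49, adjusted p 0.0424).

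ICAM1 (chr19:10270835-10286615, plus strand) encodes the adhesion molecule that leukocyte integrins bind. It ranged from 2.14 to 10.2 FPKM at pH 7.4 (median 4.18) and from 2.82 to 8.68 at pH 6.3 (median 4.05), and its 2 groups overlapped over nearly their whole range. The acidic level was lowest at 16 h and 28 h (2.82 and 2.86) and 6.82 to 8.68 at 44 to 52 h. The difference was 0.11 (SE 0.147, adjusted p 0.520), with 0.04 at the early and 0.18 at the late times, none past the threshold. With quantile normalization the difference over all times was 0.33 (adjusted p 0.0526).

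PTGS2 (chr1:186671791-186680427, minus strand) encodes the inducible cyclooxygenase that commits arachidonic acid to prostaglandins. It was a low transcript, 0.808 to 2.07 FPKM at pH 7.4 with a median of 1.00 and 0.340 to 5.50 at pH 6.3 with a median of 0.621. The acidic level was the higher at 4 h and 8 h (5.50 against 2.07, and 3.69 against 0.92), the lower at each of the 10 times from 12 to 48 h, and the higher again at 52 h (1.32 against 0.96). No comparison of means passed the test, the overall difference being -0.11 (SE 0.163, adjusted p 0.582). The slope of the difference over the 6 early times was -2.38 on the log2 scale per 24 h and passed (adjusted p 0.0130, limma); all slopes were added after the data had been seen.

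LIF (chr22:30240447-30246851, minus strand) encodes a cytokine of the IL6 family that signals through STAT3. It ranged from 5.35 to 21.5 FPKM at pH 7.4 with a median of 9.71, and from 3.32 to 12.96 at pH 6.3 with a median of 5.99. The acidic library was the lower at 10 of 13 times, with 0.159 of the neutral level at 28 h (3.32 against 21.0 FPKM). The neutral 28 h library was GC-shifted (r 0.65). At 8 h, 12 h and 48 h the acidic library was the higher, by 2.32 times at 8 h. LIF fell at pH 6.3 by 0.75 on the log2 scale over the course (SE 0.215, adjusted p 0.00657), by 0.96 at 28 to 52 h (SE 0.289, adjusted p 0.00967), and differed by -0.51 at 4 to 24 h without passing (adjusted p 0.210). That early difference did pass without the 8 h pair (-0.82, adjusted p 0.0374) and without the 6 pairs of doubtful libraries (-1.14, adjusted p 0.0174). The sets were not shown to differ (-0.46, adjusted p 0.494).

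IL6 (chr7:22725884-22732002, plus strand) encodes the cytokine that drives the acute phase response through STAT3. It was low at pH 7.4, 0.431 to 1.59 FPKM with a median of 0.861, and passed the filter only through its acidic libraries, so some difference was built into its being tested. At pH 6.3 it ranged from 0.179 FPKM at 12 h, an estimated 4.6 fragments, through a median of 1.73 to 7.77 at 48 h, an estimated 288 fragments. From 4 to 24 h its media overlapped fully, 0.529 to 1.41 against 0.179 to 1.73 FPKM. From 32 h on every acidic library (3.14 to 7.77) was above every neutral one. IL6 rose by 0.81 over the course (SE 0.230, adjusted p 0.00624), by 1.40 at 28 to 52 h (SE 0.233, adjusted p 1.1e-04), against 0.12 at 4 to 24 h (adjusted p 0.734). The difference between sets was 1.28 (SE 0.343, adjusted p 0.0192), and without the 12 h pair it was 1.14 (adjusted p 0.0521).

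**Figure D2:**
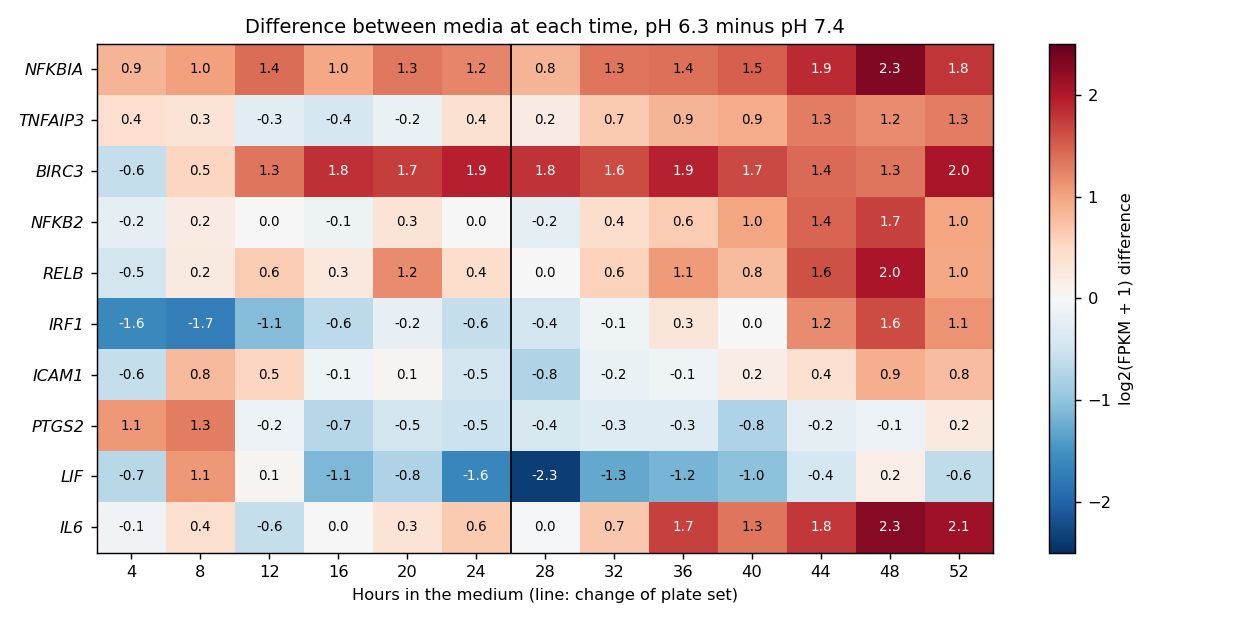
Difference in log2(FPKM + 1), pH 6.3 minus pH 7.4, for each gene (rows) at each time (columns), red for higher and blue for lower at pH 6.3, with the value in each cell and a line at the change of plate set. NFKBIA is red at every time, IRF1 goes from -1.62 at 4 h to 1.63 at 48 h, and LIF reaches -2.35 at 28 h. The neutral libraries of 28 h and 48 h were GC-shifted.

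Between genes, the order of mean FPKM at pH 7.4 was NFKBIA (40.1), NFKB2 (33.2), BIRC3 (27.9), LIF (11.3), TNFAIP3 (7.15), IRF1 (6.98), ICAM1 (4.43), RELB (3.41), PTGS2 (1.14) and IL6 (0.952). Neighbours in this order differed by less than the larger of their SDs, other than IRF1 and ICAM1, and RELB and PTGS2. At pH 6.3 the 3 most abundant were NFKBIA (100.1), BIRC3 (65.3) and NFKB2 (48.9), followed by TNFAIP3 (11.9), IRF1 (7.27), LIF (6.40), RELB (6.23), ICAM1 (4.87), IL6 (3.04) and PTGS2 (1.26). There only NFKBIA and BIRC3, and NFKB2 and TNFAIP3, differed from their neighbour by more than the larger SD. IL6 varied most over the acidic time course, 43.4 times between its lowest and highest libraries, followed by IRF1 (17.1 times) and PTGS2 (16.2 times).

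The acid difference of these genes was unequal between the sets of plates. At 4 to 24 h, 2 of the 10 genes rose (NFKBIA by 1.13 and BIRC3 by 1.13) and 1 fell (IRF1), where 11.9% and 28% of all genes tested did (40% in all). At 28 to 52 h, 6 rose and LIF fell, where 25.2% and 33.4% of all genes did (58.6% in all). The median of the 10 genes was 0.07 at the early and 0.88 at the late times, and that of all genes tested was -0.14 and -0.10. The interaction of pH and set passed for TNFAIP3, NFKB2, IRF1 and IL6, all in the direction of a higher acid difference at the late times. In that direction 10.5% of all genes tested were called, and in the other 6.56% (17.1% in all), where none of the 10 was. With the GC correction NFKBIA (0.47, adjusted p 0.0163) and RELB passed too, which made 6 genes. Calls over all genes grew as well, from 1248 to 1651 higher and from 777 to 1139 lower. Without the pairs of the 6 times with shallow or GC-shifted libraries, which left 3 and 4 times per set, none of the 4 interactions passed (adjusted p 0.0625 for NFKB2 to 0.137 for TNFAIP3), with differences of 0.80 to 1.29. In the same fit the early differences of BIRC3 (1.06, adjusted p 0.108) and IRF1 (-0.96, adjusted p 0.0572) no longer passed, and that of LIF did (-1.14, adjusted p 0.0174).

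**Figure D3:**
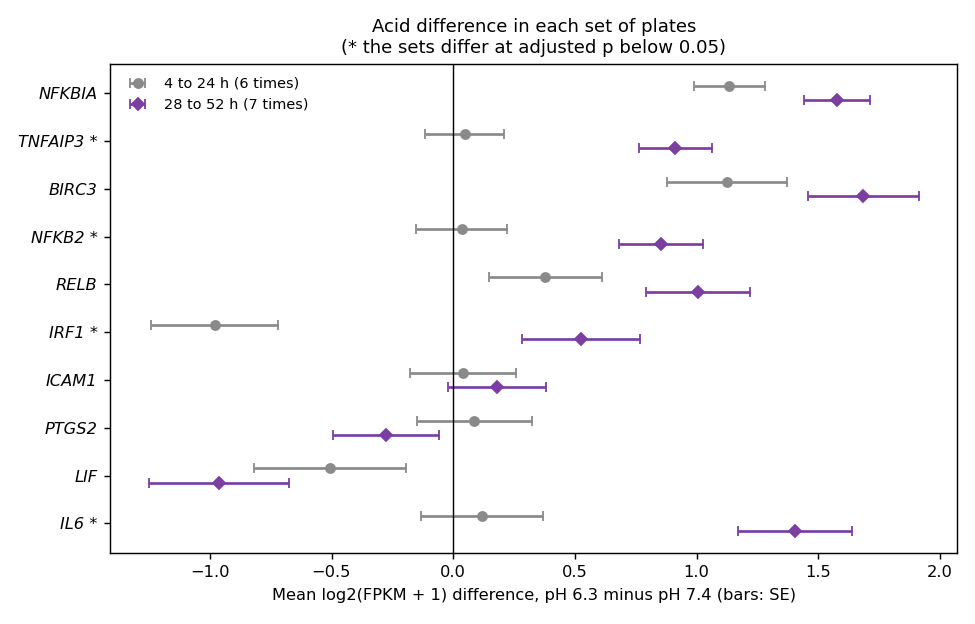
Mean log2(FPKM + 1) difference, pH 6.3 minus pH 7.4, with its SE for each gene at 4 to 24 h (grey circles, 6 times) and 28 to 52 h (purple diamonds, 7 times). Stars mark the 4 genes whose sets differ; IRF1 changes side, from -0.98 to 0.53, and IL6 goes from 0.12 to 1.40.

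Within the acidic medium, 4 genes were higher in the late than in the early set. TNFAIP3 rose by 0.97, NFKB2 by 0.83, IRF1 by 1.34 and IL6 by 1.40 (limma adjusted p 0.00764, 4.7e-04, 1.7e-04 and 4.2e-05), where 25% of all genes tested rose and 16.6% fell (41.6% in all). Without the 6 pairs named above TNFAIP3 no longer passed (0.62, adjusted p 0.315). With the GC correction RELB also rose (0.71, adjusted p 5.1e-04) and PTGS2 fell (-0.67, adjusted p 0.0464). Mean IL6 went from 1.06 ± 0.504 FPKM (SD, n = 6) to 4.73 ± 2.33 (SD, n = 7) and mean IRF1 from 3.57 ± 1.90 to 10.4 ± 4.55. At pH 7.4 limma called 0 of the 10 genes, where 4.44% of all genes rose and 3.14% fell (7.59% in all). There 1 of the 10, NFKBIA, had an unadjusted p under 0.05, with a change of -0.71 (adjusted p 0.0540), which passed without the 20 h, 24 h or 28 h libraries (adjusted p 0.0434, 0.0233 and 0.0236). All 10 genes had a higher neutral level at 4 h than at 8 h, from 1.59 times for NFKB2 to 4.65 times for ICAM1. The number of genes with a higher acidic library was 3 of 10 at 4 h, 9 at 8 h, 3 to 6 from 12 to 32 h, and 7 to 9 from 36 to 52 h. These counts by single times compare 1 library with 1, and the acidic 8 h library was shallow. The share of all genes was not counted beside them, so they are not read as particular to these genes.

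As a trend over the 13 times, the acid difference grew for NFKBIA (0.52 on the log2 scale per 24 h, adjusted p 0.00645), TNFAIP3 (0.72, 0.00532), NFKB2 (0.82, 0.00173), RELB (0.76, 0.0133), IRF1 (1.51, 2.4e-05) and IL6 (1.28, 3.0e-04), where 15.5% of all genes tested had a rising and 10.8% a falling slope. With the GC correction the slope of BIRC3 passed as well (0.74, adjusted p 0.0176). Since a step between sets of plates also gives a slope, it was fitted within each set. Within 28 to 52 h it passed for IRF1 (1.95, adjusted p 0.0454) and IL6 (2.08, adjusted p 0.0488), where 0.279% of all genes had a rising slope and 0.701% a falling one. In that set the neutral libraries of 28, 44 and 48 h were GC-shifted (r 0.65, -0.55 and -0.64). The slopes within a set were not fitted with the GC correction, so the part of GC content in them was not tested. The late slope of NFKB2 was 1.51 and that of NFKBIA 1.14, neither past the threshold (adjusted p 0.0631 for each). Within 4 to 24 h it passed for BIRC3 (2.86, adjusted p 0.00281) and IRF1 (1.72, adjusted p 0.0377) upward and for PTGS2 downward, where 7.26% and 8.73% of all genes did. The slope of TNFAIP3 within 4 to 24 h was -0.33 (adjusted p 0.667).

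Among the 10 genes the 13 differences followed each other to unequal degrees. The correlation over times was 0.93 for NFKBIA and NFKB2, 0.92 for NFKBIA and RELB, 0.90 for TNFAIP3 and IL6, and 0.90 for NFKB2 and IL6. ICAM1 and LIF had 0.82, and BIRC3 and PTGS2 had -0.80. These values share libraries, depth and GC content, and no test was made of them. Outside the 10 genes, the genes with the most similar course over the 26 libraries, among those with a mean of at least 5 FPKM, were ID3 (r = 0.962) and ATF3 (0.955) for NFKBIA, MYLIP (0.858) and SYS1 (0.841) for TNFAIP3, and CITED2 (0.914) and GNL3 (0.91) for BIRC3. They were GGCX (0.942) and ELMSAN1 (0.916) for NFKB2, PGAM5 (0.931) and ATP6V0B (0.924) for RELB, FKBP15 (0.862) and TBC1D20 (0.858) for IRF1, and IL4R (0.759) and the IkB gene NFKBIE (0.756) for ICAM1. For PTGS2 they were ADAMTS6 (0.896) and CREBBP (0.859), for LIF TGM2 (0.901) and KLHL29 (0.886), and for IL6 MPC1 (0.909) and EXOSC1 (0.907). ICAM1 was thus the gene with the least close neighbours, and 1 of its pair was an NF-kB target.

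The other genes of the pathway were given by list, to be read against the 22.4% higher and 37.3% lower of all genes. Of 3 remaining NF-kB subunits, RELA rose (35.5 to 57.7 FPKM, log2 0.66, adjusted p 0.00535) and NFKB1 and REL did not pass. Of 13 IkB and feedback genes 12 were tested, 6 rose and 2 fell, with a median of 0.38. ZFP36, which destabilizes cytokine messengers, rose most (1.20 to 7.69 FPKM, log2 1.86, adjusted p 5.3e-07), and NFKBIZ, an atypical IkB needed for IL6 induction, rose from 6.62 to 16.6 FPKM (log2 1.19, adjusted p 3.9e-06). The adaptor TRAF1 (3.37 to 0.853 FPKM) fell by 1.01 and NFKBIE by 0.45 (adjusted p 1.4e-04 and 0.0221). TRAF1 passed the filter only through its neutral libraries, so some difference was built into its being tested.

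Upstream, of 28 receptors, adaptors and kinases 4 rose, 9 fell and 15 did not pass, with a median of -0.03. The lymphotoxin beta receptor LTBR rose by 0.64 and BIRC2, the paralog of BIRC3, by 0.44, and TRAF5 fell by 1.04 and the interleukin receptor adaptor MYD88 by 0.52 (adjusted p 0.0131, 0.0036, 1.2e-06 and 0.0172). Of 24 other NF-kB targets 14 were tested, 5 rose and 3 fell, with a median of 0.29. SOD2, the mitochondrial superoxide dismutase, rose from 53.8 to 164 FPKM (log2 1.32, adjusted p 2.0e-04) and the urokinase receptor PLAUR by 1.14. TNFRSF9 fell by 0.85 and TNFAIP8 by 0.81. The tumour necrosis factor gene itself, TNF, did not exceed 0.0302 FPKM in any library.

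Of 20 genes of IL6 family cytokines, receptors and STAT3 output 19 were tested, 8 rose and 5 fell, with a median of 0.06. OSMR, a receptor subunit for oncostatin M, rose from 96.7 to 188.6 FPKM (log2 0.97, adjusted p 3.3e-07) and the STAT3 target kinase PIM1 by 1.02. SOCS1, a feedback inhibitor of cytokine receptors, fell by 0.79 and the cytokine CLCF1 by 0.74. SOCS1 (1.93 to 0.683 FPKM) passed the filter only through its neutral libraries, so some difference was built into its being tested. Of 15 prostaglandin genes 6 were tested, and PTGFR rose by 0.85 while PLA2G4A, the phospholipase that frees arachidonic acid, fell from 3.42 to 0.803 FPKM (log2 -1.37, adjusted p 2.3e-05) and the transporter SLCO2A1 by 0.51. The median was -0.18. PLA2G4A passed the filter only through its neutral libraries, so some difference was built into its being tested. The glucocorticoid receptor NR3C1 had a difference of 0.00 (adjusted p 0.987). Among markers of other cell types, 0 of 5 endothelial markers passed the filter, and 3 of 4 tested epithelial markers fell. Of these, CLDN4 (3.62 to 0.805 FPKM) passed the filter only through its neutral libraries.

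**Figure D4:**
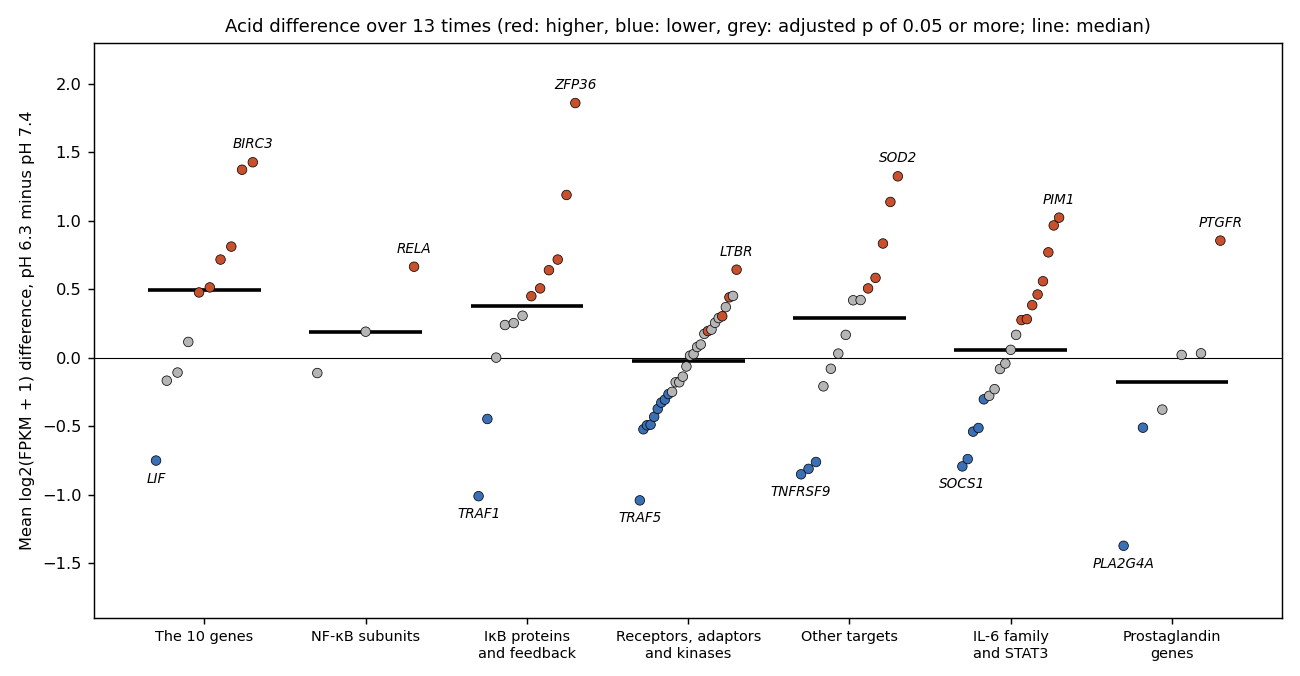
Mean log2(FPKM + 1) difference over 13 times, pH 6.3 minus pH 7.4, for the 10 genes and 6 pathway lists, 1 point per tested gene (red higher and blue lower at adjusted p under 0.05, grey otherwise), with a line at the median. The medians run from 0.49 for the 10 genes to -0.18 for the prostaglandin genes, and, of the lists plotted, every one but that of the subunits holds genes called in both directions.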

How the data were processed

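The authors deposited 1 table of FPKM values for 26 libraries. The submitters' processing notes name hg38, STAR and Cufflinks. For versions, annotation and strand setting the sources used here give nothing, and TNFAIP3, ICAM1, IRF1, LIF and IL6 have exons that overlap genes of the other strand in GENCODE 29. RNA integrity numbers were 8.7 to 10, per the labels' protocols. Values were tested as log2(FPKM + 1), which understates changes of low genes, in the 11838 genes whose mean reached 1 FPKM, all 10 members included. The tool was limma 3.58.1 in R 4.3.3, with the variance trend on and p-values adjusted by Benjamini-Hochberg (threshold 0.05). Time was the block, as the media were harvested side by side, per the labels. The late minus early change used cell means. GENCODE 29 on GRCh38 gave coordinates.

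Depth was estimated from 1808 genes with 1 transcript of at least 1000 bases: of values of 0.5 to 3.5 fragments, 88.7% to 94.4% lay within 0.1 of a whole number, with 200 bases taken off the length. The fits were tested on simulated data. A further motif searched in the promoters is not reported here. Members and lists were chosen with earlier results of these data known. Of each pathway list, up to 2 increases and 2 decreases past the threshold were named, and for each member the 2 genes of highest correlation. Alternatives were another pseudocount, filter, scaling or block, and leaving out each time.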

Additional observations from a re-analysis of the deposited data

Results flagged for a closer look

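For 4 genes the acid difference at 28 to 52 h was higher than that at 4 to 24 h by a limma test of the difference itself: TNFAIP3 by 0.86 (adjusted p 0.0158), NFKB2 by 0.82 (0.0382), IRF1 by 1.50 (0.0110) and IL6 by 1.28 (0.0192), all on the log2 scale. Of all genes tested, 10.5% were called in that direction and 6.56% in the other. In 12 of 19 alternatives of the processing, the difference of NFKB2 no longer passed. Without the pairs of the 6 times with shallow or GC-shifted libraries, so with fewer samples, none of the 4 passed (adjusted p 0.0625 to 0.137). The acid difference was above 0 at 7 of 7 late times for TNFAIP3, 6 for NFKB2, 5 for IRF1 and 6 for IL6. At the 6 early times it was above 0 at 3, 3, 0 and 4, in the same order. These counts come from the values that the test used. Time in the medium and set of plates cannot be told apart.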

How the results depend on the processing

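All alternatives kept the acid calls of NFKBIA, BIRC3, RELB, IL6 and LIF over 13 times; TNFAIP3 and NFKB2 each lost theirs once, TNFAIP3 with no replicate block (5 of the 10 genes higher) and NFKB2 without the pairs of 6 times. Of 190 values of single genes per comparison, the calls were kept in 188 for the acid effect, 188 at 28 to 52 h, 185 at 4 to 24 h and 172 for the difference between sets. Leaving out 1 time gave 2 to 5 genes higher in the difference between sets (791 to 1626 of all genes higher, 500 to 1025 lower), 1 to 2 genes lower at 4 to 24 h, 0 to 1 lower in the late minus early change at pH 7.4 (all genes 349 to 778 higher, 220 to 912 lower) and 0 to 1 at pH 6.3. For all genes, leaving out 1 time gave 977 to 1750 higher and 2347 to 3960 lower at 4 to 24 h.

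Without the 8, 12, 20, 28, 44 and 48 h pairs, so with fewer samples, the difference between sets had 0 of the 10 genes, 2 of all genes higher and 0 lower. In that setting 1 of the 10 genes was higher at 4 to 24 h (all genes 482 higher, 760 lower), and of all genes 22 rose and 5 fell late minus early at pH 7.4, and 1115 and 840 at pH 6.3. At pH 7.4, quantile normalization and the replicate block of libraries collected together (without 52 h) each called 1 of the 10 genes lower, NFKBIA with the block (-0.72, adjusted p 0.0413); the pairing by collection time came from the labels' protocol, and it changed no call of the 10 genes at pH 6.3.

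The settings that follow were chosen after the data had been seen. Put in place of the difference between sets, the slope over 13 times called 1276 of all genes lower. The slope within 28 to 52 h called 2 of the 10 genes higher, and 33 of all genes higher and 83 lower. The slope within 4 to 24 h called 2 of the 10 higher and 1 lower, and that of TNFAIP3 was reversed, at -0.33. With the GC correction 570 of all genes fell late minus early at pH 7.4, while 1 of the 10 genes and 2248 of all genes fell at pH 6.3. With it the slope over 13 times called 7 of the 10 genes higher, with 2461 of all genes higher and 1493 lower. The cause of these changes was not tested. Low depth limits IL6 most, with an estimated 4.6 fragments in its lowest library, and for PTGS2 and IRF1 the lowest libraries held an estimated 36 and 37, all of which scale with the depth estimate.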
